A study of Mus musculus with 9 samples.

Results

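The protein part of the cytosolic ribosome was followed through its mRNAs in the mouse renal cortex. The family was chosen with earlier results of these data known. Its genes were then taken by symbol alone. Every mRNA gene named Rpl or Rps with a number was taken, optionally followed by a, x, y or l and a number. Rplp0, Rplp1, Rplp2 and Rpsa were added. This gave 84 of the 21950 mRNA genes in the deposited tables, 52 of the large subunit and 32 of the small subunit, with 191 annotated transcripts on 19 chromosomes. Mitochondrial ribosomal proteins (Mrpl, Mrps), ribosomal protein kinases and named pseudogenes fall outside these names. The study asked how rosiglitazone, which activates the nuclear receptor PPARγ, alters RNA in the kidney of diabetic mice. All mice were males on the C57BL/KsJ background, killed at 15 weeks of age. Control mice were db/m littermates, which carry 1 copy of the leptin receptor mutation db. The dbdb mice were db/db homozygotes, obese and diabetic through loss of leptin signalling in the whole body, and received vehicle. The dbR mice were db/db homozygotes that were gavaged with rosiglitazone (20 mg/kg/day) over 8 weeks, starting when they were 7 weeks old. Each group had 3 libraries, 1 for each mouse.

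A ribosome holds nearly every one of these proteins in a single copy, and the cell keeps their output balanced through mRNAs that are abundant, short and stable. Most of these mRNAs begin with a tract of pyrimidines, the TOP motif, through which TOR signalling and the protein Larp1 control their translation and their storage. In the kidney, growth of the tubules in early diabetes goes along with more ribosome production and with phosphorylation of the S6 protein.

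The label renal cortex was checked on marker genes. All 6 proximal tubule markers were present in every library, with a summed level of 2758, 2694 and 2457 FPKM in control, 2920, 3169 and 2562 in dbdb and 2928, 2804 and 2835 in dbR mice, and 2 of them were called higher in dbdb vs. control, as were 13.1% of all genes. FPKM counts fragments per kilobase of transcript, scaled to the mapped fragments of the library, and was summed here over the transcripts of a gene. The most abundant of the 6 was the phosphate transporter Slc34a1. The podocyte markers, 5 genes led by Podxl, summed to between 73.4 and 96.6 FPKM, and 2 of the 5 were likewise called higher. The whole tissue was measured, so fewer cells of a type and less RNA per cell cannot be told apart in any value given here.

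Of the 84 genes, 82 reached a mean of 0.1 FPKM over the 9 libraries and were tested, as were 14537 mRNA genes in all. Rpl10l and Rpl39l, paralogs made mainly in the testis, were listed at 0 in all 9 libraries, and the muscle paralog Rpl3l had a mean of 0.650 FPKM. The other 81 genes had means of 25.5 FPKM or more. Their abundance is shown by the median of 344 FPKM over the 82 genes, beside 7.08 FPKM over all genes tested, and 14 of them were among the 100 most abundant mRNA genes. The level per length was not even across the ribosome. Rps27, a zinc finger protein of the small subunit, had the highest mean, 2013 FPKM, followed by Rps29 with 1445, Rpl41 with 1321, Rpl38 with 1188 and Rps21 with 1140.4. These 5 genes held 20.0% of the FPKM of the whole family. At the other end, above Rpl3l, stood Rpl7l1 with 25.5, Rps20 with 31.1 and Rpl22l1 with 55.9 FPKM. Rps20 was measured on 1 annotated transcript of 3706 bases. In the 5 highest members the most abundant transcript had from 345 (Rps27) to 437 bases (Rpl41). FPKM divides by the annotated length, and how far that length sets this order was not tested.

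The mRNAs are short, with a median length of 751 bases, taken from the most abundant transcript of each gene, against 2714 over all genes tested. Of the 82 genes, 63 had a transcript under 1000 bases, as did 10.1% of the tested genes. Many also have processed copies in the genome: 56 of the 84 genes have at least 1 annotated pseudogene that carries their symbol, 288 such pseudogenes in all, led by Rpl31 with 24 and Rps12 with 23. Reads of these genes may have been shared with such copies, and the levels of single members are uncertain to that extent.

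The family summed to 33968, 31298 and 34093 FPKM in control mice. Its sum was 36954, 32387 and 30207 FPKM in dbdb mice and 35713, 42779.6 and 42211 FPKM in dbR mice. The dbR libraries 2 and 3 stood above all others, while dbR1 lay below dbdb1, so that the dbR and dbdb sums overlapped. The group means were 33119.8 (SD 1579), 33182 (SD 3443) and 40234 (SD 3926) FPKM. As a share of the summed mRNA FPKM, the family took 4.99%, 4.63% and 4.67% in the control, 5.70%, 5.18% and 5.08% in the dbdb and 5.9996%, 6.09% and 6.40% in the dbR libraries, with no overlap between any of the groups. The share was thus higher in dbdb than in control, although the family sums overlapped and their means were close. The divisor, the summed mRNA FPKM, averaged 695568 in the control and 622870 in the dbdb libraries. The mitochondrial genome gave 26.9% to 32.8% of each library's mRNA FPKM. With these genes left out, the shares were 6.95%, 6.62% and 6.63% in control, 8.15%, 7.33% and 7.07% in dbdb, and 8.20%, 9.07% and 8.88% in dbR libraries, and the groups again did not overlap.

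**Figure D1:**
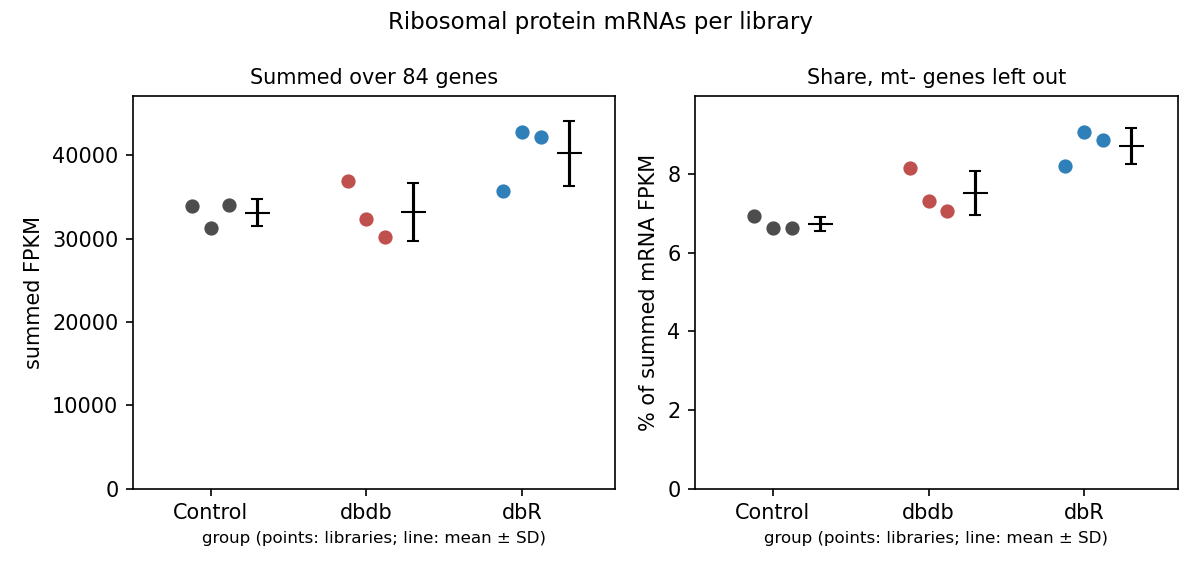
Summed FPKM of the 84 ribosomal protein genes (left) and their percent of the mRNA FPKM without the mt- genes (right), with 1 point for each library and the mean with its SD for each group. The sums of the dbR libraries run from 35713 to 42779.6 FPKM and overlap those of dbdb (30207 to 36954), while the shares rise from at most 6.95% in control to at least 7.07% in dbdb and 8.20% in dbR.

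Each mouse was next placed by the median member. Relative to the mean of the control libraries, the median log2 difference of the tested members was 0.02, -0.07 and 0.04 in the controls themselves. It was 0.12, -0.06 and -0.14 in dbdb mice and 0.09, 0.35 and 0.32 in dbR mice. The dbR1 library lay within the range of dbdb, and dbdb1 was the highest library outside dbR. For all other genes with a mean of at least 10 FPKM the same medians were between -0.10 and 0.02. A relative sequencing depth was read from genes of very low level with 1 annotated transcript. It is the most frequent ratio of their FPKM in control replicate 1 to that in each library. This depth was 1.14, 1.05 and 0.914 in the dbR and 0.939, 0.963 and 0.986 in the dbdb libraries, with control replicate 1 at 1. The library with the most depth, dbR1, was thus the one with the lowest member level in its group, and the part of depth in this result was not tested.

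For dbR vs. dbdb, the paper reported from these same libraries that its changed mRNAs had their strongest pathway association with the ribosome. In the fit used here, 80 of the 82 tested members had a log2 fold change above 0 in that comparison. The median was 0.29, with quartiles of 0.23 and 0.35, beside a median of -0.00 and quartiles of -0.11 and 0.13 over all genes tested. At an adjusted p under 0.05 in the limma fit over all genes, 2 members were called higher (Rpl22 and Rpl22l1), beside 0.564% of all genes, and 0 were called lower, beside 0.179%. At an unadjusted p under 0.05, 59 members were higher, 72.0% of those tested beside 9.43% of all genes, and 0 were lower, beside 8.05%. The 3 dbR libraries all lay above the 3 dbdb libraries in 29 members, beside 10.7% of all genes, and in 0 members did they all lie below, beside 11.9%. The p-values measure the spread between mice, and most members moved together within each library, so that the members are not independent counts of an effect. The number called depended on single libraries, as did that over all genes. It was 6 without dbR1, 1 without Control1, Control2, dbdb1 or dbdb3, and 0 without dbdb2, dbR2 or dbR3. Over all genes, 59 higher and 11 lower were called without dbR1, 67 and 21 without Control1, 53 and 19 without Control2, 23 and 13 without dbdb1, 115 and 26 without dbdb3, 21 and 10 without dbdb2, 2 and 0 without dbR2 and 5 and 5 without dbR3. The median of the members lay between 0.24 and 0.37 whichever library was left out.

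The direction in dbR vs. dbdb did not depend on the scaling. The median of the members was 0.32 with the libraries scaled to their 75th percentile, 0.19 after quantile normalization and 0.23 with the equal-sum scaling, in which the mt- genes were left out and the libraries were then scaled to the same sum. It was 0.19 with the libraries scaled to the other genes with transcripts under 1000 bases, an alternative chosen after seeing the data. That last scaling moved the median of all genes to -0.10, and relative to all genes the members stood at 0.30, 0.20, 0.29 and 0.29 under these scalings. Members called were 7, 10, 4 and 6 in the same order, and 0 of them were lower in any of the scalings. Over all genes the calls were 82 higher and 26 lower, against 164 and 39 with the 75th percentile scaling, 161 and 74 after quantile normalization, 52 and 55 with the equal-sum scaling and 58 and 150 with the short-gene scaling.

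In dbdb vs. control the member medians of the libraries overlapped as scaled by the authors, whereas the shares of the mRNA FPKM given above did not, so that the result depended on the scaling. Relative to all genes, the members' median log2 fold change was -0.02 as scaled by the authors, with 31 of 82 members above 0, and it was -0.01 with the 75th percentile and the equal-sum scaling but turned to 0.08 after quantile normalization. The equal-sum scaling moved the median of all genes by 0.15, and that of the members to 0.14. The quartiles of the members were -0.09 and 0.04, and those of all genes tested were -0.19 and 0.22. At an adjusted p under 0.05, 1 member was called higher (Rplp2), beside 13.1% of all genes, and 2 were called lower (Rpl22l1 and Rpl36al), beside 13.4%. At an unadjusted p under 0.05 these counts were 2 and 5, beside 19.1% and 19.7%. The groups did not overlap in 3 members that were higher, beside 21.2% of all genes, and in 6 that were lower, beside 21.2%. Which side the calls fell on depended on the scaling: 2 higher and 2 lower were called with the 75th percentile scaling, 17 and 2 after quantile normalization, 19 and 1 with the equal-sum scaling, and 9 and 2 with the short-gene scaling. Over all genes these splits were 1899 higher and 1941 lower as scaled by the authors, 2112 and 1751 with the 75th percentile scaling, 1902 and 1820 after quantile normalization, 3492 and 969 with the equal-sum scaling and 2425 and 1134 with the short-gene scaling. With 1 library left out, 1 member was called without Control3 or dbdb3, beside 1352 genes higher and 1409 lower and 1512 and 1602 over all genes.

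In dbR vs. control, 77 members were above 0 and the median was 0.25, with quartiles of 0.21 and 0.31. Of the 14537 genes tested, 7230 were above 0, with a median of -0.00 and quartiles of -0.17 and 0.22. This comparison shares its control libraries with dbdb vs. control and its dbR libraries with dbR vs. dbdb. At an adjusted p under 0.05, 24 members were higher, beside 12.3% of all genes, and 0 were lower, beside 11.8%. At an unadjusted p under 0.05, 60 were higher, beside 18.6% of all genes, and 1 (Rpl7l1) was lower, beside 18.2%. The groups did not overlap in 54 members that were higher, beside 20.8%, and in 0 that were lower, beside 21.1%. The 24 members called were 10 of the large and 14 of the small subunit, and their log2 fold changes ran from 0.20 in Rps9 to 0.47 in Rps28. The count was 51 without dbR1, 11 without Control1, 14 without Control3, 15 without dbdb2, and 3 without dbR2 or dbR3. Without Control2 it was 3 higher and 1 lower. Over all genes, the calls in the same order were 1342 higher and 1212 lower, 1534 and 1331, 1274 and 1205, 1669 and 1591, 1290 and 1308, and 1362 and 1341, and 1322 and 1386 without Control2. The members' median kept its sign under each scaling, at 0.30 with the 75th percentile, 0.25 after quantile normalization, 0.34 with the equal-sum scaling and 0.24 with the short-gene scaling, where 57, 65, 73 and 63 members were called higher and 0 lower. Over all genes the calls were 1786 higher and 1711 lower, against 2210 and 1336, 1723 and 1625, 2404 and 1006, and 1543 and 1549 under these scalings in the same order.

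**Figure D2:**
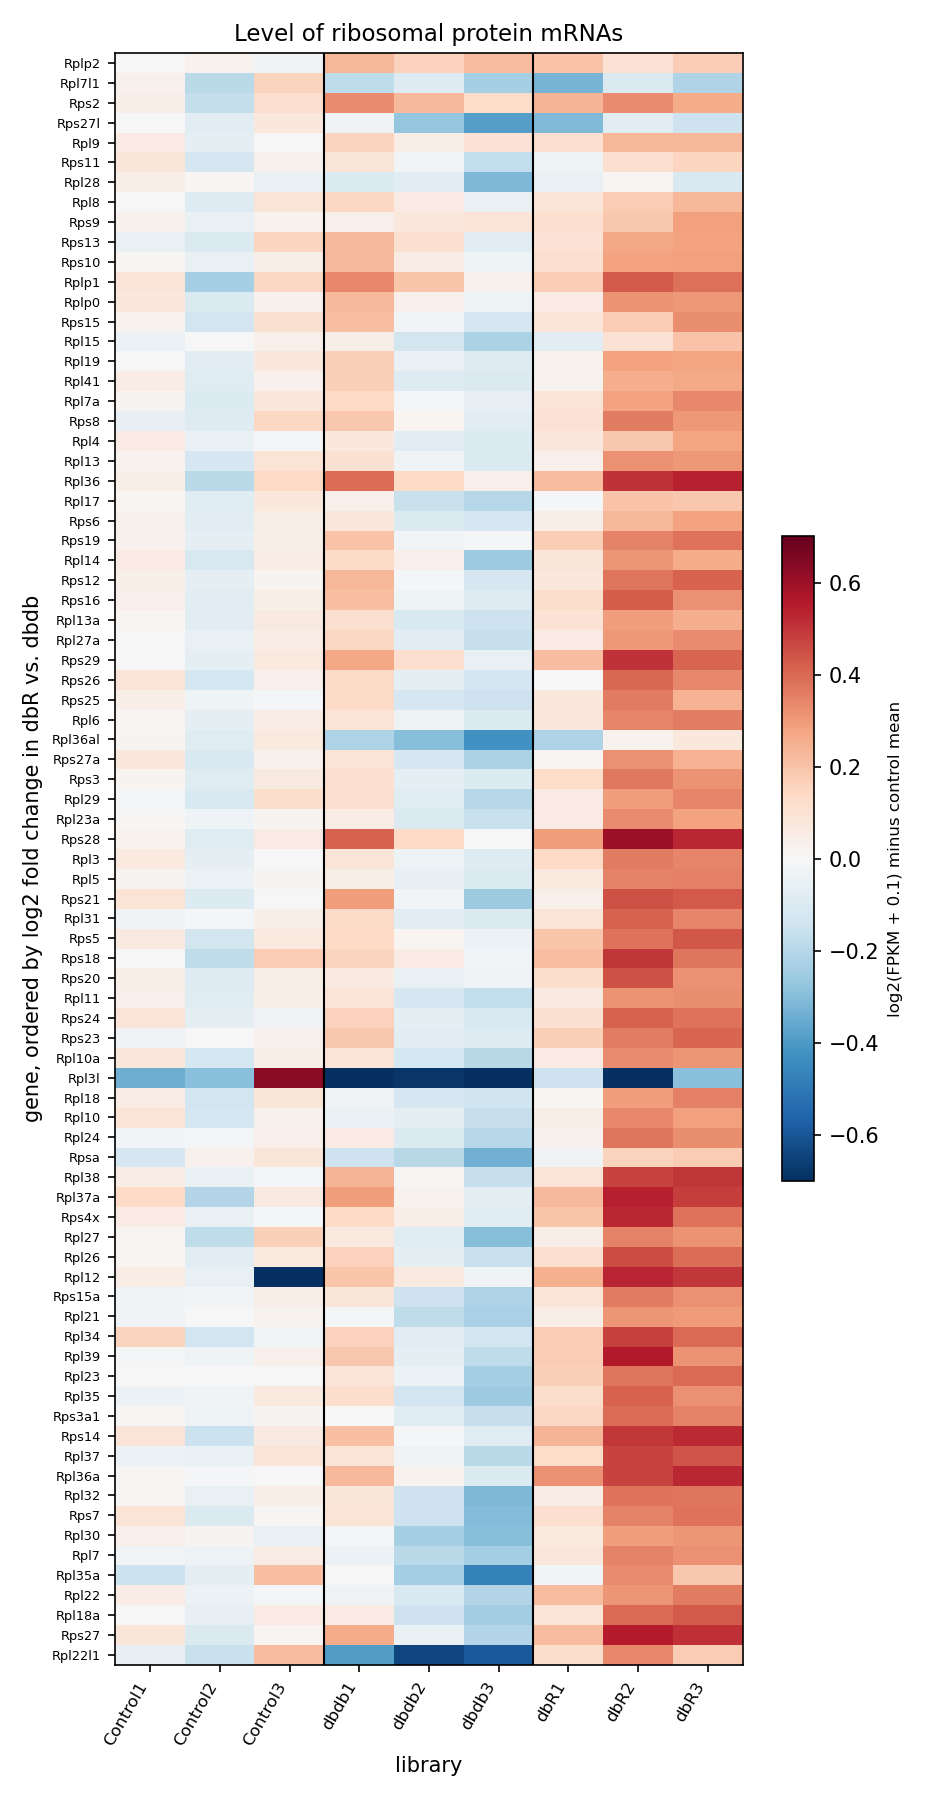
Level of 81 of the 82 tested ribosomal protein mRNAs (rows, ordered by their log2 fold change in dbR vs. dbdb) in the 9 libraries (columns), as log2(FPKM + 0.1) minus the control mean, with colours clipped and Rpl12 shown relative to Control1 and Control2. The medians of dbR2 and dbR3 are 0.35 and 0.32, that of dbR1 is 0.09, and those of the dbdb libraries run from -0.14 to 0.12.

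The members rose and fell together across the libraries. Over the 9 libraries, the log2 level of each member with a mean of at least 10 FPKM was compared with the mean of the other members. The median Pearson r was 0.955, and 70 of the 81 had an r above 0.8. The group means were not removed, so r also holds the differences between the groups. The points share libraries and their scaling, so the values describe these libraries only. The 5 members under 0.5 were Rpl7l1 with -0.15, Rpl12 with 0.14, Rplp2 with 0.16, Rps27l with 0.24 and Rpl28 with 0.32. Rpl12, a protein at the base of the stalk and chosen here after its values were seen, had 134 and 125 FPKM in Control1 and Control2 but 1.72 FPKM in Control3. Its level was 148, 135 and 127 FPKM in the dbdb and 153, 188 and 182 FPKM in the dbR libraries. This single low library gave it a log2 fold change of 2.13 in dbdb vs. control (adjusted p 0.259). Without Control3 the log2 fold change was 0.08, and why this value is low was not tested.

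The members were next split by subunit, and the difference between the subunits was not tested. In dbR vs. dbdb the median log2 fold change was 0.30 over 50 genes of the large and 0.28 over 32 genes of the small subunit. It was 0.23 and 0.28 in dbR vs. control and -0.04 and 0.02 in dbdb vs. control, the latter as scaled by the authors. All 32 tested genes of the small subunit and 48 of 50 of the large subunit were above 0 in dbR vs. dbdb. The exceptions were Rplp2 and Rpl7l1, with -0.05 and -0.04. Above 0 in dbdb vs. control were 19 of 32 genes of the small and 12 of 50 of the large subunit, and in dbR vs. control 31 and 46.

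Rpl22 and its paralog Rpl22l1 encode RNA-binding proteins of the large subunit that can replace each other in the ribosome. Rpl22l1 had 56.3, 52.7 and 68.1 FPKM in the control, 44.7, 37.6 and 39.0 in the dbdb and 63.8, 74.3 and 66.3 in the dbR libraries. All dbdb libraries lay below all control and all dbR libraries, and the latter overlapped each other. Its log2 fold change was -0.54 in dbdb vs. control (adjusted p 0.00454), lower in 3 of 3 dbdb libraries and called under all 21 alternatives, with adjusted p between 0.00314 and 0.0201. In dbR vs. dbdb, which uses the same dbdb libraries, it was 0.75 (adjusted p 0.0234), the largest of the 82 members. That call was lost without dbdb2 (0.0662), dbR2 (0.109) or dbR3 (0.0604), and it was made under 16 of 21 alternatives, with adjusted p from 0.0133 to 0.109. Its log2 fold change in dbR vs. control was 0.21 (adjusted p 0.171). Both of its annotated transcripts were lowest in dbdb on average, and the more abundant had 42.0, 43.4 and 49.4 FPKM in control, 35.9, 29.4 and 28.0 in dbdb and 47.4, 55.6 and 50.3 in dbR libraries.

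Rpl22 had 300.04, 282 and 288 FPKM in the control, 285, 269 and 252 in the dbdb and 338, 359 and 374 in the dbR libraries. All dbR libraries lay above the 6 others, while control and dbdb overlapped. The log2 fold change was 0.41 in dbR vs. dbdb (adjusted p 0.0331) and 0.30 in dbR vs. control (adjusted p 0.011), the latter called under all 21 alternatives. The call in dbR vs. dbdb was made under 10 of 21 alternatives, with adjusted p from 0.0179 to 0.153. It was lost without Control1 (0.0502), Control2 (0.0518), dbdb1 (0.0528), dbdb2 (0.0955), dbdb3 (0.0557), dbR2 (0.153) or dbR3 (0.0894). Rpl22 changed by -0.11 in dbdb vs. control (adjusted p 0.257).

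**Figure D3:**
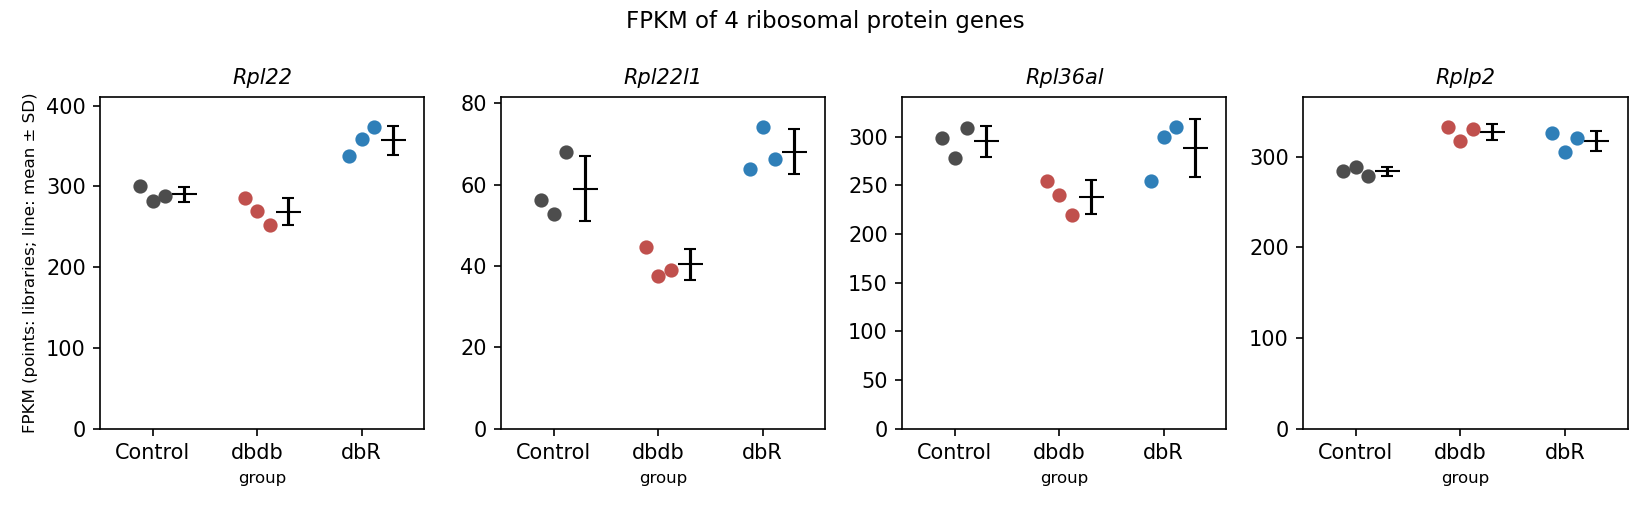
FPKM of Rpl22, Rpl22l1, Rpl36al and Rplp2 in each library (points), with the mean and SD of each group. Rpl22l1 spans 37.6 to 44.7 FPKM in dbdb, below control (52.7 to 68.1) and dbR (63.8 to 74.3), and Rplp2 is at most 289 FPKM in control and at least 305 in dbdb and dbR libraries.

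Of the other paralogs only Rpl36al was called, lower in dbdb vs. control. This gene, a paralog of Rpl36a, had 298, 278 and 309 FPKM in the control, 254, 239.9 and 219.7 in the dbdb and 254, 299.7 and 310.4 in the dbR libraries. The dbdb libraries lay below the control libraries, and dbR1 was level with dbdb1. Between dbdb and control its log2 fold change was -0.31 (adjusted p 0.0277, from 0.00819 to 0.0866 over the alternatives, called under 15 of 21), and the call was lost without Control1 (0.0733), Control3 (0.0866), dbdb2 (0.0666) or dbdb3 (0.0864). The parent gene Rpl36a had 258, 256 and 257 FPKM in the control, 301, 262 and 240.3 in the dbdb and 321, 357 and 371 in the dbR libraries. Its dbR libraries all stood above the 6 others, with a log2 fold change of 0.39 in dbR vs. dbdb (adjusted p 0.0709) and 0.44 in dbR vs. control (adjusted p 0.00554, called under all 21 alternatives). The 4 paralogs with a mean of at least 10 FPKM (Rpl7l1, Rpl22l1, Rpl36al and Rps27l) had medians of -0.27, 0.16 and -0.11 in dbdb vs. control, dbR vs. dbdb and dbR vs. control. All 4 were below 0 in dbdb vs. control as scaled by the authors and under each scaling tried.

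Rps27l, a paralog of Rps27 that is a target of p53, had 361, 340.4 and 379 FPKM in the control, 354, 298 and 275 in the dbdb and 290.1, 342 and 326 in the dbR libraries. The groups overlapped, with log2 fold changes of 0.05 in dbR vs. dbdb (adjusted p 0.832) and -0.23 in dbdb vs. control (adjusted p 0.122, or 0.0296 without dbdb1, from 0.0296 to 0.479 over the alternatives). Its parent Rps27 had 1907, 1674 and 1812 FPKM in the control, 2153, 1740.02 and 1555 in the dbdb and 2093, 2626 and 2557 in the dbR libraries. In Rps27 dbR1 lay below dbdb1, and the log2 fold change in dbR vs. dbdb was 0.42 (adjusted p 0.165). Rpl7l1, a distant relative of Rpl7, stayed between 22.1 and 30.9 FPKM in all libraries. Rpl3l had 1.39 FPKM in Control3 and at most 0.770 in the other libraries, too low for a statement on its change.

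The P stalk binds the elongation factors at the entry of the ribosome and is made of Rplp0, Rplp1 and Rplp2. Rplp2 had 284, 289 and 279 FPKM in the control, 333, 317 and 331 in the dbdb and 326, 305 and 320.2 in the dbR libraries. All 6 libraries of db/db mice lay above the control libraries, and dbdb and dbR overlapped. The log2 fold change was 0.20 in dbdb vs. control (adjusted p 0.0244), -0.05 in dbR vs. dbdb (adjusted p 0.731) and 0.16 in dbR vs. control (adjusted p 0.0668). The call was lost without Control1 (0.0677), Control3 (0.0716), dbdb1 (0.0678) or dbdb3 (0.0627), and it was made under 15 of 21 alternatives, with adjusted p from 0.00332 to 0.11. Rplp1 and Rplp0 had log2 fold changes of 0.14 and 0.15 in dbR vs. dbdb and of 0.19 and 0.08 in dbdb vs. control, all with overlapping groups. Rpl5 and Rpl11, which carry the 5S RNA into the ribosome and bind Mdm2 when free, had log2 fold changes of 0.30 and 0.30 in dbR vs. dbdb (adjusted p 0.111 and 0.154). In dbR vs. control Rpl5 had 0.26 (adjusted p 0.0468) and Rpl11 0.23 (adjusted p 0.102). The call of Rpl5 was made under 9 of 21 alternatives and lost with any 1 library left out other than dbR1, with an adjusted p of up to 0.149 (without dbR3).

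In the small subunit, Rps28, which lies near the exit of the mRNA, had 746, 691 and 762 FPKM in the control, 976, 806 and 729.6 in the dbdb and 898, 1108 and 1056 in the dbR libraries. Its dbR libraries were above all control libraries but overlapped dbdb, with a log2 fold change of 0.47 in dbR vs. control (adjusted p 0.0173). That call was lost without Control2 (0.0598), dbR2 (0.0647) or dbR3 (0.0574). Rps3a1, with 0.37 (adjusted p 0.0581), and Rpl7, with 0.40 (adjusted p 0.0593), followed the called genes in dbR vs. dbdb. Rps3a1 was called in dbR vs. control, with 0.29 (adjusted p 0.022), under 15 of 21 alternatives, and that call was lost without Control1 (0.0558), Control2 (0.0657), Control3 (0.0505), dbR2 (0.079) or dbR3 (0.0751).

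Rps6, the substrate of the S6 kinases, had 391, 362 and 394 FPKM in the control, 403, 357 and 352 in the dbdb and 395, 449 and 465 in the dbR libraries. Its control and dbdb libraries overlapped, dbR1 lay within the range of dbdb, and the log2 fold change in dbR vs. dbdb was 0.24 (adjusted p 0.185). Rps19, the gene most often mutated in Diamond-Blackfan anaemia, had 0.24 in dbR vs. dbdb (adjusted p 0.175) and 0.30 in dbR vs. control (adjusted p 0.0261). The latter call was made under 16 of 21 alternatives and lost without Control1 (0.0552), Control2 (0.0851), dbR2 (0.0819) or dbR3 (0.09). Rps27a, made as a fusion with ubiquitin, had 0.28 in dbR vs. dbdb (adjusted p 0.216). Rpsa, a small subunit protein also known as the laminin receptor, had 82.5, 91.7 and 95.3 FPKM in the control, 81.1, 78.3 and 71.1 in the dbdb and 88.2, 99.9 and 101 in the dbR libraries. The dbdb libraries of Rpsa lay below all 6 others, with log2 fold changes of 0.33 in dbR vs. dbdb (adjusted p 0.0834) and -0.22 in dbdb vs. control (adjusted p 0.0635). Rps2, on the solvent side near the mRNA entry, had 0.05 in dbR vs. dbdb (adjusted p 0.813) and 0.23 in dbdb vs. control (adjusted p 0.0733). It was called in dbR vs. control, with 0.28 (adjusted p 0.0396), under 12 of 21 alternatives, and that call was lost without Control1 (0.0675), Control2 (0.125), dbdb2 (0.0584), dbR1 (0.0663), dbR2 (0.116) or dbR3 (0.0848). In dbdb vs. control, Rpsa was called without Control1 (0.0414) or dbR1 (0.0476), and Rps2 under 4 of the 21 alternatives, all of them scalings.

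The difference in dbR vs. dbdb did not follow annotated transcript length within the family. This length is that of the most abundant annotated transcript of each gene, and the mRNA present may differ from it. Its median was 0.30 in the 19 members under 500 bases, 0.32 in the 19 from 500 to 700, 0.28 in the 25 from 700 to 1000 and 0.27 in the 15 from 1000 to 2000 bases. The 3 members from 2000 to 4000 bases had a median of 0.30, with 2 of them above 0. Other genes with a mean of at least 10 FPKM did change with length. Their medians in the same bins were 0.07 (119 genes), 0.12 (183), 0.08 (381), 0.02 (1554) and -0.03 (2159), and -0.04 over 4000 bases (1513). Other genes with transcripts under 1000 bases were thus a little higher in dbR than in dbdb, with medians below those of the members in the same bins. The medians of the other genes with transcripts under 1000 bases were -0.11, 0.06 and 0.05 in the dbR and -0.01, -0.11 and -0.15 in the dbdb libraries, relative to the control mean. As in the ribosomal protein genes, dbR2 and dbR3 were the highest of these 6 libraries, and the part of transcript length in the result was not tested.

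**Figure D4:**
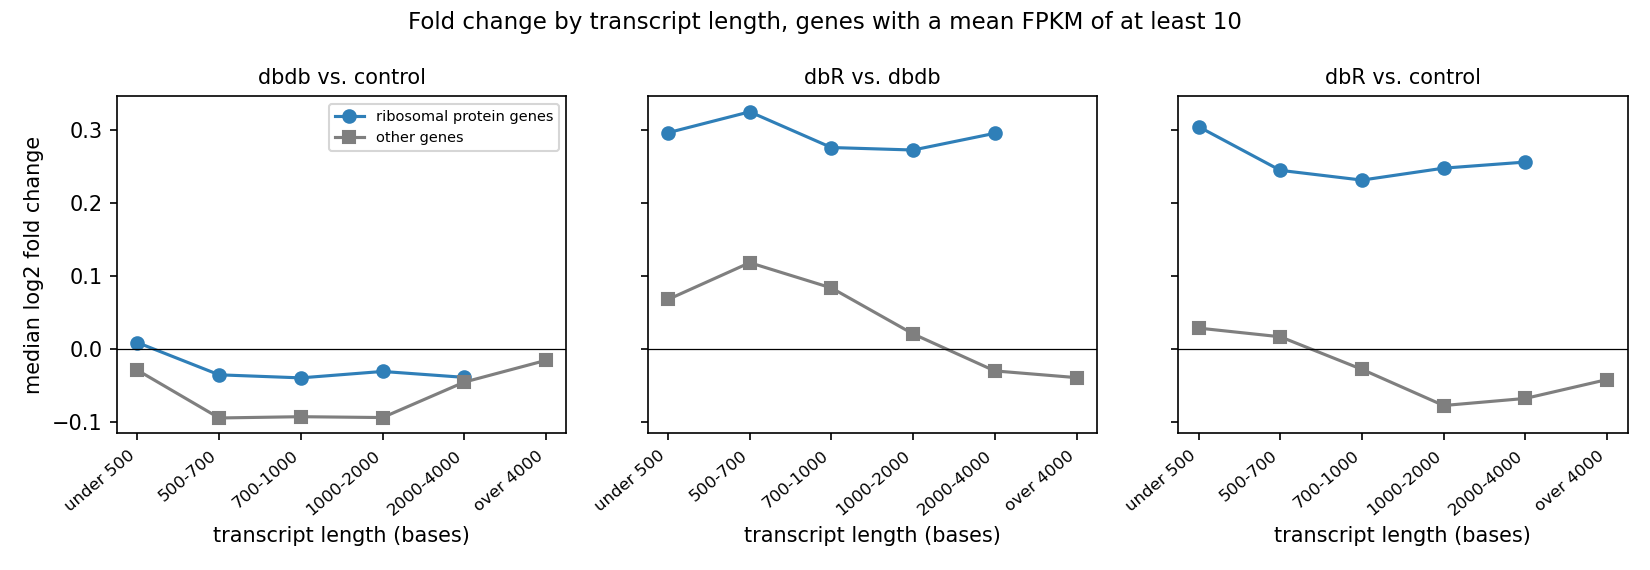
Median log2 fold change of ribosomal protein genes (circles) and of other genes with a mean of at least 10 FPKM (squares) by transcript length in bases, for each comparison. In dbR vs. dbdb the ribosomal protein genes lie between 0.27 and 0.32 and the other genes between -0.04 and 0.12, while in dbdb vs. control the members are near 0 and their sign depends on the scaling.

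The pyrimidine tract is the feature these mRNAs are best known for, so the bases around the annotated starts were read from the RefSeq promoter table (build GRCm38.p6). Of the members, 64 were matched by symbol. A run of at least 8 bases, each C or T, on the strand of the gene and touching the 10 bases on either side of an annotated start, was found in 29 of 64 (45.3%), beside 15.8% of the 27025 genes in the table. The 29 members with a run had a median log2 fold change of 0.26 in dbR vs. dbdb, and the 32 members without one that had a mean of at least 10 FPKM had 0.30. A match is a description of the letters, and where it is missing, nothing follows for the mRNA, since the annotated start may differ from the one used. The windows of 30 bases around the start are given for the members called in dbdb vs. control or dbR vs. dbdb, for Rps27 as the most abundant and Rps6 as the best known, and for Rpl7a, which had the longest run, with 21 bases. Capitals mark the longest run of C and T in the window that touches the start region. The windows lie at chr3:28805493-28805522 (plus strand) for Rpl22l1, chr4:152324421-152324450 and chr4:152325711-152325740 (plus) for the starts of Rpl22, chr12:69184053-69184082 (minus) for Rpl36al, chr7:141447636-141447665 (plus) for Rplp2, chr3:90213634-90213663 (minus) for Rps27, chr4:86857353-86857382 (minus) for Rps6 and chr2:26910792-26910821 (plus) for Rpl7a.
Rpl22l1: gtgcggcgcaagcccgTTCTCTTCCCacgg
Rpl22, upstream start: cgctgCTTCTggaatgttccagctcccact
Rpl22, downstream start: ttcgCCCTgggaaaagcaatagctggccga
Rpl36al: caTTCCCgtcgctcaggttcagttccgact
Rplp2: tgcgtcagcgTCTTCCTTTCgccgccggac
Rps27: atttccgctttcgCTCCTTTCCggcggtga
Rps6: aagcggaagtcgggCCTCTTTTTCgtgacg
Rpl7a: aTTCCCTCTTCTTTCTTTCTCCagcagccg

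Rpl22l1 and Rplp2 both held a run of 10 bases. They had the largest and the lowest log2 fold change of the members in dbR vs. dbdb (0.75 and -0.05). A relation between the run and the fold change was not tested. Rpl22 held runs of 5 and 4 bases at its starts and Rpl36al a run of 5, all under the length of 8.

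Other mRNAs of the translation machinery were read from lists of genes. Among ribosomal proteins whose symbols fall outside the naming rule, Gnb2l1, which encodes Rack1, had a log2 fold change of 0.22 in dbR vs. dbdb (adjusted p 0.135). It had 0.21 in dbR vs. control (adjusted p 0.0435, from 8.4e-04 to 0.139 over the alternatives, called under 13 of 21), a call lost without Control1 (0.0908), Control2 (0.139), dbdb2 (0.063), dbR2 (0.127) or dbR3 (0.131). The list of elongation factors and other TOP mRNAs held 18 genes, all tested. All 18 were above 0 in dbR vs. dbdb, with a median of 0.20, 12 at an unadjusted p under 0.05 (beside 9.43% of all genes higher) and 2 called (beside 0.564%). In dbdb vs. control its median was -0.06 (1 called higher and 4 lower, beside 13.1% and 13.4% of all genes), and in dbR vs. control 0.14 (5 higher and 1 lower, beside 12.3% and 11.8%).

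Eif4b, an initiation factor that assists the helicase Eif4a, had 114, 113 and 110.2 FPKM in the control, 114, 111 and 105 in the dbdb and 142, 139 and 145 in the dbR libraries. All dbR libraries stood above the 6 others, with a log2 fold change of 0.36 in dbR vs. dbdb (adjusted p 0.0251, from 0.0158 to 0.109 over the alternatives). It was called under 13 of 21 alternatives, and among those with a library left out the call was lost without dbdb2 (0.0662), dbR2 (0.109) or dbR3 (0.0704). Against control Eif4b had 0.33 in dbR (adjusted p 0.00165), called under all 21. Npm1, a nucleolar chaperone that escorts ribosomal particles, had 159.99, 179 and 179.6 FPKM in the control, 166, 142 and 136 in the dbdb and 189, 224 and 223 in the dbR libraries. Its dbR libraries were likewise the highest 3, with 0.52 in dbR vs. dbdb (adjusted p 0.0445, from 0.0241 to 0.192, called under 9 of 21 alternatives). That call was lost without Control1 (0.0576), Control2 (0.0624), Control3 (0.0561), dbdb2 (0.127), dbdb3 (0.0777), dbR2 (0.192) or dbR3 (0.114). Against control Npm1 had 0.29 in dbR (adjusted p 0.0494), called under 11 of 21 alternatives and lost without Control1 (0.15), Control2 (0.0787), Control3 (0.0751), dbdb2 (0.0662), dbR2 (0.145) or dbR3 (0.142). The elongation factor Eef1a1, the most abundant of the list, had 2207, 2079 and 2137 FPKM in the control, 2033, 2026 and 1979.7 in the dbdb and 2309, 2489 and 2584 in the dbR libraries, and its groups did not overlap. Nap1l1, a histone chaperone, was lower in dbdb vs. control by a log2 fold change of -0.66 (adjusted p 3.6e-05) and in dbR vs. control by -0.45 (adjusted p 3.0e-04), called under all 21 alternatives in each.

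The lists for other steps did not share the median of the ribosomal protein genes in dbR vs. dbdb, where 9.43% of all genes were higher and 8.05% lower at an unadjusted p under 0.05. The 25 initiation factors outside the TOP list, which holds 6 others, among them Eif4b, that were all above 0, had a median of 0.00, with 0 called in limma and 2 higher and 5 lower at an unadjusted p under 0.05. The 36 genes of ribosome assembly in the nucleolus had -0.03, with 0 called and 1 higher and 2 lower at an unadjusted p under 0.05. The 15 genes of RNA polymerase I and its factors had -0.08, with 0 called and 1 higher and 0 lower at an unadjusted p under 0.05. The 26 genes of TOP mRNA and TOR signalling had -0.06, with 0 called and 0 higher and 1 lower at an unadjusted p under 0.05. The 54 nuclear genes of the respiratory chain, which are also short and abundant, had 0.09, with 42 above 0, 0 called and 6 higher and 0 lower at an unadjusted p under 0.05.

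In dbdb vs. control, where 13.1% of all genes were called higher and 13.4% lower, 1 of the 25 initiation factors was higher and 4 were lower, 5 of the 36 assembly genes and 1 of the 15 polymerase I genes were lower, and 1 of the 54 respiratory chain genes was higher and 1 lower. Called in dbR vs. control, beside 12.3% of all genes higher and 11.8% lower, were 2 initiation factors, 5 assembly genes and 1 polymerase I gene, all lower, and 4 respiratory chain genes, all higher. Nhp2, a protein of the box H/ACA particles that modify ribosomal RNA, had log2 fold changes of -0.81 and -0.86 against control in dbdb and dbR (adjusted p 0.00437 and 0.00355). In the TOR list of 26, 7 genes were higher and 2 lower in dbdb vs. control, and 4 were higher and 2 lower in dbR vs. control. The kinase Mtor itself had log2 fold changes of -0.49 and -0.68 in dbdb and dbR (adjusted p 0.0057 and 0.00101), and its inhibitor Sesn2 had 0.68 and 0.87 (adjusted p 0.00124 and 3.5e-04), all called under each of the 21 alternatives. Myc, which drives ribosome production, had 0.77 and 0.76 (adjusted p 0.0124 and 0.0132), the latter lost without dbR1 (0.0507). The S6 kinase gene Rps6kb2 was called higher in dbdb vs. control, with 0.33 (adjusted p 0.0278), under 17 of 21 alternatives. That call was lost without Control2 (0.0738), Control3 (0.0811), dbdb2 (0.0589) or dbdb3 (0.0831). All of these are mRNA levels, and TOR activity was not measured.

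Several TOP transcripts carry no protein but small nucleolar RNAs in their introns. Of 13 such host genes, 9 were found among the annotated lncRNAs, where 1653 genes were fitted by themselves. In that fit 0 lncRNA genes were called in dbR vs. dbdb, 110 of them at an unadjusted p under 0.05. The host genes had a median of 0.06 in that comparison, beside -0.03 over the lncRNA genes, with 2 higher at an unadjusted p under 0.05. Gas5, the most abundant, had 90.4, 92.8 and 96.6 FPKM in the control, 97.0, 85.2 and 94.4 in the dbdb and 117, 118 and 126 in the dbR libraries. All dbR libraries of Gas5 lay above the 6 others, with a log2 fold change of 0.38 in dbR vs. dbdb (adjusted p 0.488) and 0.37 in dbR vs. control (adjusted p 0.0625). In dbR vs. control 2 host genes were called higher (Snhg4 and Snhg8) and 0 lower, beside 44 and 24 of the 1653 lncRNA genes, and in dbdb vs. control 1 (Snhg4) was higher and 0 were lower, beside 48 and 36.

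Markers of other cells moved between the same groups. The 6 markers of endothelium and stroma, led by Emcn, summed to 98.3, 101 and 93.0 FPKM in the control, 70.2, 70.4 and 70.7 in the dbdb and 98.7, 118 and 104 in the dbR libraries. The dbdb libraries were the lowest 3 of the 9. In dbR vs. dbdb, 3 of the 6 were called higher (beside 0.564% of all genes) and all 6 were higher at an unadjusted p under 0.05 (beside 9.43%), and in dbdb vs. control 3 were called lower (beside 13.4%). None of the 6 was at 0 in any library. Emcn, an endothelial sialomucin, had 0.66 in dbR vs. dbdb (adjusted p 0.0205, called under 17 of 21 alternatives), a call lost without dbdb2 (0.0516), dbR2 (0.0688) or dbR3 (0.0604), and -0.61 in dbdb vs. control (adjusted p 7.5e-04). The other 2 called in dbR vs. dbdb were Kdr and Pdgfrb, receptors of endothelial cells and pericytes. Kdr had 0.52 (adjusted p 0.0309), called under 12 of 21 alternatives and lost without dbdb1 (0.0681), dbR1 (0.0601), dbR2 (0.151) or dbR3 (0.0797). Pdgfrb had 0.69 (adjusted p 0.0234), called under 14 of 21 and lost without dbdb1 (0.0528), dbdb2 (0.0662), dbR2 (0.109) or dbR3 (0.0604). The 6 macrophage markers, led by C1qa, summed to 48.4, 40.8 and 47.9 FPKM in the control, 20.2, 26.4 and 35.2 in the dbdb and 28.6, 33.4 and 37.6 in the dbR libraries, with 4 called lower in dbdb vs. control (beside 13.4% of all genes) and 0 called in dbR vs. dbdb (4 higher at an unadjusted p under 0.05, beside 9.43%). The part of these cells in the level of the ribosomal protein mRNAs was not tested.

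Of 8 lymphocyte markers 7 were found and 5 tested, and they summed to 195, 134 and 108 FPKM in the control, 59.3, 79.4 and 875 in the dbdb and 76.7, 92.7 and 151 in the dbR libraries. Nearly all of the sum in dbdb3 came from Cd74, with 872 FPKM. The 5 tested had a median log2 fold change of -0.72 in dbdb vs. control, with 2 called lower, beside 13.4% of all genes. In dbR vs. dbdb the median was 0.24 with 0 called, and in dbR vs. control 1 was called lower, beside 11.8%. Cd3d was at 0 in 3 libraries and Cd79a and Ms4a1 in 1 each. The 5 erythroid markers, led by Hbb-bs, summed to 104, 7.79 and 23.6 FPKM in the control, 17.5, 6.73 and 7.31 in the dbdb and 10.3, 16.3 and 18.2 in the dbR libraries, high in Control1 only. The 6 markers of the loop of Henle and distal nephron, led by Umod, summed to 638, 532 and 559 FPKM in the control, 729, 679 and 919 in the dbdb and 838, 835 and 779 in the dbR libraries. Of these, 1 (Atp6v1g3) was called higher in dbR vs. dbdb, beside 0.564% of all genes, and 4 were in dbdb vs. control, beside 13.1%. Atp6v1g3, a subunit of the proton pump of intercalated cells, had 0.52 in dbR vs. dbdb (adjusted p 0.0251), called under 13 of 21 alternatives and lost without dbdb1 (0.0561), dbdb2 (0.0715), dbR2 (0.12) or dbR3 (0.0604). Of 9 genes of RNA handling and tissue stress, 8 were tested, and they summed to 25.5, 26.9 and 34.1 FPKM in the control, 34.6, 34.3 and 45.4 in the dbdb and 26.2, 32.3 and 28.7 in the dbR libraries. Jun, the most abundant of them, was called higher in dbdb vs. control (0.91, adjusted p 0.00388). The part of these markers in the result was not tested either.

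Among 5922 genes outside the rule with a mean of at least 10 FPKM, the 10 whose log2 level over the 9 libraries was most like the mean of the ribosomal protein genes included, by Pearson r, Adk with 0.964, Gnb2l1 with 0.953, Atp5g2 with 0.951, Use1 with 0.951, Eif3m with 0.949, Tmem256 with 0.948, Thap4 with 0.948, Dnajc8 with 0.946 and Gstk1 with 0.943. Adk, adenosine kinase, had 134, 128 and 136 FPKM in the control, 134, 129 and 117 in the dbdb and 137, 163 and 160.2 in the dbR libraries. As in the ribosomal protein genes, dbR2 and dbR3 were its highest libraries. The 9 points share their scaling, and the genes were ranked by this value, so it is a description of likeness alone.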

How the data were processed

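Renal cortex RNA of 9 mice, 3 in each group, was read as 9 libraries. Per the labels and the paper, the authors removed ribosomal RNA, aligned 150 bp paired reads to GRCm38.p2 with TopHat 2.0.9 and deposited the FPKM of each transcript from Cufflinks 2.1.1. No read counts are in the files, so the absolute depth is unknown. Only a relative depth was read, from the most frequent FPKM ratio between libraries in genes of very low level.

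FPKM was summed for each gene. log2(FPKM + 0.1) of the 14537 mRNA genes with a mean of at least 0.1 was fitted with limma 3.58.1 (R 4.3.3) with a variance trend, in 1 model for the 3 groups, with two-sided tests adjusted by Benjamini-Hochberg over all of these genes and called under 0.05. The fit was tested on simulated data of these genes, with 200 changed in dbR: in dbR vs. dbdb it called 2, 158 and 187 of them at log2 fold changes of 0.3, 1 and 2 (of 2, 167 and 205 genes called in all). Annotated lncRNA genes were fitted separately, and lncRNAs assembled by the authors were left out. Transcript lengths and pseudogenes came from GENCODE M21.

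The members and lists were chosen with earlier results of these data known, so the family received no test of its own. Members were named if called in a comparison (up to 10 in each direction by fold change, or the 5 smallest p where under 5 were called), if among the 5 highest or lowest in level, or for a known role. Of the other lists, called genes could be named. The most abundant gene of a list and lymphocyte markers at 0 in a library were named as well. Outside the rule, the 10 genes most like the family could be named. Alternatives were other pseudocounts (1 and 0.01), filters, scalings (75th percentile, quantile, equal sum without mt- genes), 6 libraries in place of 9, a replicate block, no variance trend, the top transcript in place of the sum, and each library left out. Scaling to other short genes was added after seeing the data.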

Additional observations from a re-analysis of the deposited data

How the results depend on the processing

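The number of ribosomal protein genes called depended on the processing far more than their median did. From 3 called in dbdb vs. control, the count went to 19 after quantile normalization, 20 with the equal-sum scaling (mt- genes left out, then libraries scaled to the same sum) and 11 with the libraries scaled to other short genes, an alternative chosen after seeing the data. The equal-sum scaling also moved the median to 0.14 and that of all genes by 0.15, since it multiplies every gene of a library by the same factor. In dbR vs. dbdb, where 2 were called, the count was 1 with no filter on low values or with only the 6 libraries compared, 7 with the 75th percentile scaling, 10 with quantile normalization, 4 with the equal-sum scaling, 6 with the short-gene scaling and 0 without the variance trend. Over all genes, 24 higher and 7 lower were called there with no filter, 24 and 12 with 6 libraries and 12 and 6 without the trend, against 82 and 26. From 24 called in dbR vs. control, the count went to 14 with no filter, 57 with the 75th percentile scaling, 65 with quantile normalization, 73 with the equal-sum scaling, 63 with the short-gene scaling and 11 without the variance trend. Over all genes in dbR vs. control, 1627 higher and 1643 lower were called with no filter. Without the trend these were 1726 and 1494, against 1786 and 1711. More genes were tested with no filter, and fewer libraries estimate the spread with 6. For the other changes the cause was not tested.

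When single libraries were left out, the counts ran from 1 to 4 in dbdb vs. control, from 0 to 6 in dbR vs. dbdb and from 3 to 51 in dbR vs. control, and the medians from -0.10 to 0.03, from 0.24 to 0.37 and from 0.20 to 0.33. The highest counts, 6 and 51, were those without dbR1. Over the other alternatives the medians ran from -0.02 to 0.14, from 0.19 to 0.32 and from 0.24 to 0.34. The medians of dbR vs. dbdb and dbR vs. control thus kept their direction in every alternative run, and that of dbdb vs. control did not.

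With the replicate number as a replicate block in limma, 1, 0 and 7 ribosomal protein genes were called in the 3 comparisons. Over all genes it called 1663 higher and 1682 lower, 15 and 8, and 1545 and 1485. The labels do not pair the mice, and the numbers carried no such signal: after the group means were removed, 0 of 9 pairs of libraries with the same number had an r above 0.1 (from -0.17 to 0.06), and 0 libraries were closest to one of their own number.

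Of the values of single genes under the alternatives, 3104 kept their direction and their side of the threshold, 433 kept their direction but were no longer called, 85 became called and 69 uncalled values changed sign. No called gene changed direction. Only a relative depth is known, so no limit set by depth can be given for genes listed at 0.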
